A study of Mus musculus with 6 samples.

Results

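ATAC-seq peaks were read around 8 genes that are switched on by ERK signalling and, for the most part, restrain it: Spry2, Spry4, Spred1, Spred2, Dusp4, Dusp6, Etv4 and Etv5. These 8 were chosen by name out of 21887 protein-coding genes, and each was read together with 50 kb on either side. The 8 windows together spanned 1.07 Mb of the mouse genome (mm10). Of the 65324 regions that the peaks of all 6 deposited lists formed across the genome, 77 lay in these windows.

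ATAC-seq marks accessible DNA by letting the transposase Tn5 insert sequencing adapters into it. The cells were CGR8, a mouse embryonic stem cell line, which the series' design text calls CGR8 Cdt1-MD. They were sampled at points that the labels name mito, LM and eG1-1, with 2 replicates of each. The series title speaks of mitotic exit, so the points were put in the order mito, LM, eG1-1 and taken as mitosis, late mitosis and early G1, although the labels do not write these names out. The peak names of the LM files read Telo. All groups were untreated and shared a medium of neurobasal and DMEM/F-12 with N-2, B-27, leukemia inhibitory factor, 3 µM of the GSK3 inhibitor CHIR99021 and 1 µM of the MEK inhibitor PD184352. The inhibitor was thus present in every sample, ERK activity itself was not measured in these data, and no sample without the inhibitor was analysed here. The titles give 10K cells per sample and the protocol 50000. Nothing in the labels says whether replicates were separate cultures, so spreads and p-values describe these samples and may be technical. Each sample contributed 1 list of peaks, with 20639 to 48396 peaks per list. The number of reads behind a list is unknown, and a list without a peak at a site means that none was called there. Of 7 genes that mark pluripotent cells (Pou5f1, Sox2, Nanog, Esrrb, Klf4, Zfp42 and Tfcp2l1), 6 had a peak within 50 kb in all 6 lists, and Sox2 in 5, against 70.3% of all protein-coding genes with such a peak in all 6. Within 1 kb of an end, 1 of the 7 (Zfp42) had a peak in all 6 lists, and Esrrb in none. A peak near a gene does not by itself identify a cell type.

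ERK lies at the end of a kinase relay that runs from growth factor receptors through Ras, Raf and MEK. Active ERK induces its own brakes: Sprouty and Spred proteins act on Ras and Raf, and the dual-specificity phosphatases DUSP4 and DUSP6 remove the activating phosphates from ERK itself. ETV4 and ETV5 are ETS transcription factors of the PEA3 subfamily whose genes follow FGF and ERK activity closely. In mouse embryonic stem cells FGF and ERK signalling prepares cells to leave the naive state, which is why naive cultures are kept in a MEK inhibitor.

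Promoters overlapped by a peak in all 6 lists and promoters overlapped in none are shown first, as RefSeq sequences on GRCm38.p6. They run from 250 bases before to 50 bases after the annotated start. RefSeq promoters were found for 5 of the 8 genes, 6 promoters in all because Etv5 has a pair. Spry4, Dusp4 and Etv4 had no entry. The Dusp6 promoter (chr10:99262981-99263280, plus strand) and the upstream Etv5 promoter (chr16:22439521-22439820, minus strand) were overlapped by a peak in all 6 lists. The Spry2 promoter (chr14:105896770-105897069, minus strand) and the Spred1 promoter (chr2:117120821-117121120, plus strand) were overlapped in none. Spred1 did have a peak within 1 kb of an end in every list, outside these 300 bases. Over 32851 RefSeq promoters of the genome, 16.1% were overlapped in all 6 lists and 60.0% in none. The sequences are written 5′ to 3′, and capitals mark the letters CCAAT or their reverse complement, the core of the NF-Y motif.
Dusp6: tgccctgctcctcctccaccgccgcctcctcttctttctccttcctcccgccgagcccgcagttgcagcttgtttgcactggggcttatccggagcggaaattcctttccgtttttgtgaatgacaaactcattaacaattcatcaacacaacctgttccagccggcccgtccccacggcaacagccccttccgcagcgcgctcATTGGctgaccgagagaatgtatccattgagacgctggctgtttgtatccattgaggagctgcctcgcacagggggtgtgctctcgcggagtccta
Etv5, upstream start: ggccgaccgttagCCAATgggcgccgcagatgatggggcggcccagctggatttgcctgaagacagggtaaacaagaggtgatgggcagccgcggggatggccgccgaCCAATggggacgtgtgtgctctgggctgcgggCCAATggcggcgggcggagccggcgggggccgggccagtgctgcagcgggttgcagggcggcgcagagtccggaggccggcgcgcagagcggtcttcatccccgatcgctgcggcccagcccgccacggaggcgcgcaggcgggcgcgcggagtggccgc
Spry2: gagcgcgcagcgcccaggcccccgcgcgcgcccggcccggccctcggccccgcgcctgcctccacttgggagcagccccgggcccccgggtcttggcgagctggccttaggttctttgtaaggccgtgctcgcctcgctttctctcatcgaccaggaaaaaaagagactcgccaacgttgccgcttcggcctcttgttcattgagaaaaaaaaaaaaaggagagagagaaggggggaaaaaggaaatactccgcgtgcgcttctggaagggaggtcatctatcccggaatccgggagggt
Spred1: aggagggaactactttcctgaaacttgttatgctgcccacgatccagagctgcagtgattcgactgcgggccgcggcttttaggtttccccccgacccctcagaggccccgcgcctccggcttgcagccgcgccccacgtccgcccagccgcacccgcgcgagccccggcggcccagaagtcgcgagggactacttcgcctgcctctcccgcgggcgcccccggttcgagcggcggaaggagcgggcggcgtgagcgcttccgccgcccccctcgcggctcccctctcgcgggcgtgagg

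Both promoters overlapped by a peak in every list held the NF-Y letters, and both overlapped in none lacked them. The contrast rests on these few promoters and was not tested. The shares with the letters among all promoters overlapped in every list or in none are not given here. It is also of 300-base stretches, since Spred1 had peaks just upstream of its own. The upstream Etv5 promoter held CCAAT 3 times and Dusp6 held it once, and 3.37% of all promoters held it 3 times or more. The same letters also stood once in the Spred2 promoter and in the downstream Etv5 promoter, which had a peak in 1 list each, and in 37.4% of all promoters. The Spred2 promoter also held TGACGT, the first part of the CRE motif TGACGTCA, as did 7.51% of all promoters. On either strand, 0 of the 6 promoters held the ETS letters CCGGAAGT or ACCGGAAG, the full CRE, the AP-1 letters TGANTCA, the TCF letters TCAAAG or the ESRRB letters TCAAGGTCA. They also lacked the STAT letters TTCCNGGAA, the KLF and SP letters GGGCGGGG, the NRF1 letters GCGCATGC, the E-box CACGTG and the TATA letters TATAAA. Of all promoters, 3.89% and 2.30% held the ETS letters, 1.79% the full CRE and 7.81% the AP-1 letters. The TCF letters stood in 16.0%, those of ESRRB in 0.423%, of STAT in 1.15% and of KLF and SP in 17.6%. For NRF1 the share was 2.71%, for the E-box 7.15% and for TATA 13.6%. With 6 promoters, an absence says little beside such shares. The long ETS motifs share 7 of their letters and overlap where both occur. These matches describe letters in a window of 300 bases and not binding. In the 4 promoters printed above, GC content did not follow overlap with a peak. It was 57.3% in the Dusp6 promoter and 74.0% in the upstream Etv5 promoter, which were overlapped in all lists. In the Spry2 and Spred1 promoters, overlapped in none, it was 62.7% and 72.3%. Of the 4657 promoters with at least as many CpG sites as Spry2 (28), 26.6% had no peak in any list and 27.7% had one in all 6. Over all promoters these shares were 60.0% and 16.1%. The cut was chosen after the Spry2 value was seen.

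**Figure D1:**
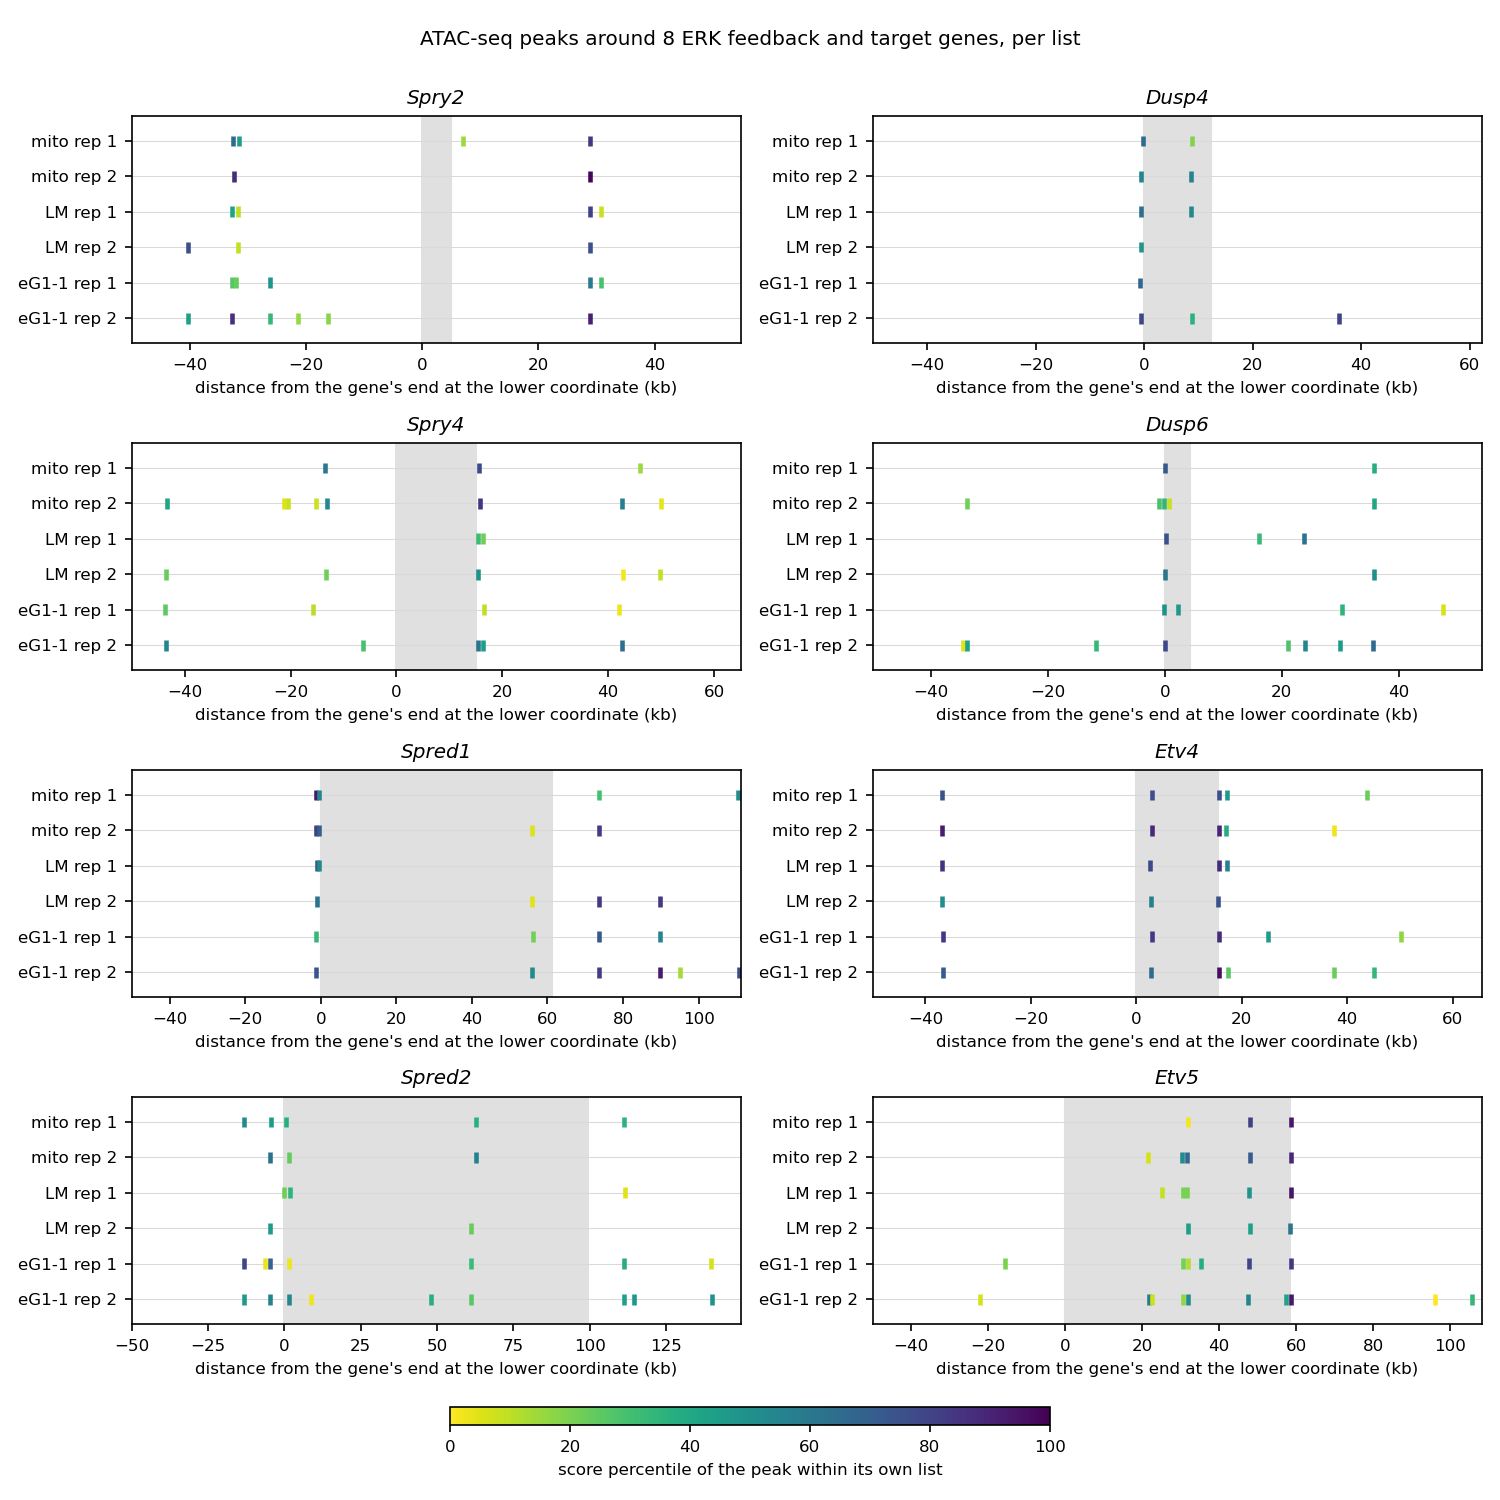
Position of every peak in the 8 gene windows, 1 row per list, with the horizontal axis giving the distance in kb from the gene's end at the lower coordinate. Ticks mark peak centres and are wider than the peaks, their colour is the percentile of the peak's score within its own list, and grey marks the gene. Peaks lined up over all 6 lists in 12 places, while Spry2 had none in the gene itself.

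Sprouty genes encode inhibitors that act between the receptor and Raf. Spry2 (chromosome 14, 105891947 to 105896819) had no peak within 1 kb of either end, nor in the gene, in any of the 6 lists. It was the 1 member of 8 in that state, against 38.6% of all protein-coding genes without a peak at an end in any list. Its constant peaks lay far out on both sides. The region from 105920395 to 105921272, centred 24.0 kb upstream of the start, had scores of 111 and 274 in the mito lists, 103 and 76 in the LM lists, and 57 and 173 in the eG1-1 lists. These placed it at percentiles 83.9 and 98.5 of the scores of the mito lists, 81.2 and 75.1 of LM, and 59.1 and 91.2 of eG1-1. The 274 of mito replicate 2 was the highest score of any peak in the 8 windows, and its percentile was also the highest. Beyond the other end of the gene, 32.2 kb away, the region from 105858884 to 105860688 scored 72 and 138 in the mito lists, 46 and 22 in the LM lists, and 33 and 138 in the eG1-1 lists. Both mito scores ranked higher within their lists (percentiles 65.7 and 87.8) than both LM scores (41.7 and 8.84). The eG1-1 lists differed (26.2 and 86.3), one at the level of LM and one at that of mito replicate 2. The highest Spry2 score in LM replicate 2 was that of a site 40.3 kb below the gene (77), which eG1-1 replicate 2 shared (50).

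Spry4 (chromosome 18, 38586247 to 38601347) has its upper end beside that of Arhgap26. A region over this shared boundary, from 38601255 to 38602883, was the 1 region of the Spry4 window held by all lists, with scores of 94 and 124 in the mito lists, 39 and 47 in the LM lists, and 22 and 71 in the eG1-1 lists. Both mito scores ranked higher within their lists (percentiles 77.9 and 84.4) than the LM scores (31.6 and 49.0) and the eG1-1 scores (9.16 and 61.4). In eG1-1 replicate 1 the peak of this region sat inside Arhgap26, more than 1 kb from the Spry4 end, so the Spry4 end itself had a peak in 5 of 6 lists. The peaks here cannot be assigned to one of the neighbours. A second region, 13.3 kb from the lower end (38572502 to 38573414), had peaks in both mito lists (64 and 63) and in LM replicate 2 (30), and none in eG1-1. In eG1-1 the strongest Spry4 peaks lay elsewhere, 43.6 kb below the gene in replicate 1 (32) and within Arhgap26, 27.6 kb beyond the upper end, in replicate 2 (75). Both sites also had peaks in mito replicate 2 (51 and 68) and LM replicate 2 (31 and 15).

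Spred proteins bring the Ras inactivator neurofibromin to the membrane. At Spred1 (chromosome 2, 117121071 to 117182279) a pair of regions lay before the start. The farther one, centred 1.30 kb upstream (117119365 to 117120178), was in all 6 lists, with scores of 167 and 117 in the mito lists, 80 and 58 in the LM lists, and 36 and 93 in the eG1-1 lists. The nearer one, centred 0.466 kb upstream (117120442 to 117120768), scored 58 and 87 in mito and 56 in LM replicate 1, and had no peak in LM replicate 2 or in either eG1-1 list. It stopped before the promoter printed above. Farther out, 28.6 kb beyond the gene's other end, the region from 117210708 to 117211143 went the other way: it had no peak in mito or in LM replicate 1, a score of 95 in LM replicate 2, and scores of 52 and 188 in eG1-1. A region 12.3 kb beyond that end was in 5 lists, with scores of 39 and 118 in mito, 93 in LM replicate 2, and 74 and 121 in eG1-1.

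Spred2 (chromosome 11, 19924442 to 20024026) was the 1 member without a region held by all 6 lists. Windows with at least 1 such region made up 62.8% of all protein-coding windows, and 7 of the 8 members had one. At the Spred2 start, single peaks were called in mito replicate 1 (44) and in LM replicate 1 (33) at different places. The most constant site lay 4.55 kb before the start (19919371 to 19920413), with scores of 50 and 76 in mito, 44 in LM replicate 2, and 68 and 63 in eG1-1. The strongest Spred2 peak of LM replicate 1 (42) lay 1.65 kb inside the gene, at a site with scores of 37 in mito replicate 2 and of 18 and 60 in eG1-1. Within the gene, adjacent sites parted by group. The region from 19986686 to 19987581 had peaks in both mito lists (44 and 67) and in no other. The region from 19985415 to 19985779, just below it, had no peak in mito, and scored 31 in LM replicate 2 and 35 and 36 in eG1-1.

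The phosphatase genes were accessible at an end throughout. DUSP6 acts on ERK in the cytoplasm, and Dusp6 (chromosome 10, 99263231 to 99267489) had a region over its start, from 99262791 to 99264097, that scored 82 and 45 in the mito lists, 88 and 57 in the LM lists, and 48 and 105 in the eG1-1 lists. The groups overlapped, with a high and a lower list in each. Its promoter was covered over 273 to 300 of its 300 bases in every list. DUSP4 acts in the nucleus, and Dusp4 (chromosome 8, 34807610 to 34819894) had a region across its lower end, from 34806541 to 34807798, with scores of 72 and 65 in the mito lists, 68 and 46 in the LM lists, and 67 and 107 in the eG1-1 lists. This was the sparsest of the 8 windows, with 3 regions. A second Dusp4 region lay within the gene (34815909 to 34816794), with scores of 32 and 66 in mito, 56 in LM replicate 1 and 43 in eG1-1 replicate 2. The third, 23.7 kb beyond the gene and inside Tnks, had a peak in eG1-1 replicate 2 alone, with a score of 113. The Dusp6 window held 12 regions, of which 7 were in a single list. One of the remainder, from 99292987 to 99293800 and 25.9 kb beyond the gene's upper end, had peaks in both eG1-1 lists (38 and 52) and in no other. The farther site at 31.4 kb (99298516 to 99299356) scored 45 and 51 in mito, 48 in LM replicate 2 and 77 in eG1-1 replicate 2.

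The windows of Etv4 and Etv5, which encode the transcription factors of the set, had the most constant sites, with 3 regions each in all 6 lists. Etv4 (chromosome 11, 101769747 to 101785310) had one across its upper end (101784909 to 101785951), which scored 91 and 145 in the mito lists, 131 and 76 in the LM lists, and 116 and 255 in the eG1-1 lists. It stood at percentile 75.1 or above in every list. Another lay within the gene, 2.75 kb from the lower end (101771966 to 101773020), with scores of 89 and 142 in the mito lists, 94 and 53 in the LM lists, and 98 and 77 in the eG1-1 lists. The third was at an end of the neighbouring helicase gene Dhx8 (101732566 to 101733267), at 87 and 164 in the mito lists, 120 and 48 in the LM lists, and 102 and 89 in the eG1-1 lists. In all 3 the lowest score, and the lowest percentile within a list, was that of LM replicate 2.

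Etv5 (chromosome 16, 22381313 to 22439570) had its strongest region at the upstream start (22439656 to 22440173), with scores of 172 and 141 in the mito lists, 179 and 57 in the LM lists, and 100 and 203 in the eG1-1 lists. The peak covered 122 to 165 of the 300 promoter bases. A site inside the gene, 10.6 kb from the upper end (22428377 to 22429649), scored 103 and 90 in the mito lists, 51 and 42 in the LM lists, and 90 and 62 in the eG1-1 lists. Both LM scores ranked lower within their lists (percentiles 47.7 and 43.2) than those of mito (81.4 and 71.4) and eG1-1 (80.0 and 54.7). A weaker internal site, 26.5 kb from that end (22412706 to 22413393), scored 18 and 80 in the mito lists, 32 and 43 in the LM lists, and 25 and 57 in the eG1-1 lists. The downstream Etv5 start, within the annotated gene, had a peak in eG1-1 replicate 2 alone (49).

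**Figure D2:**
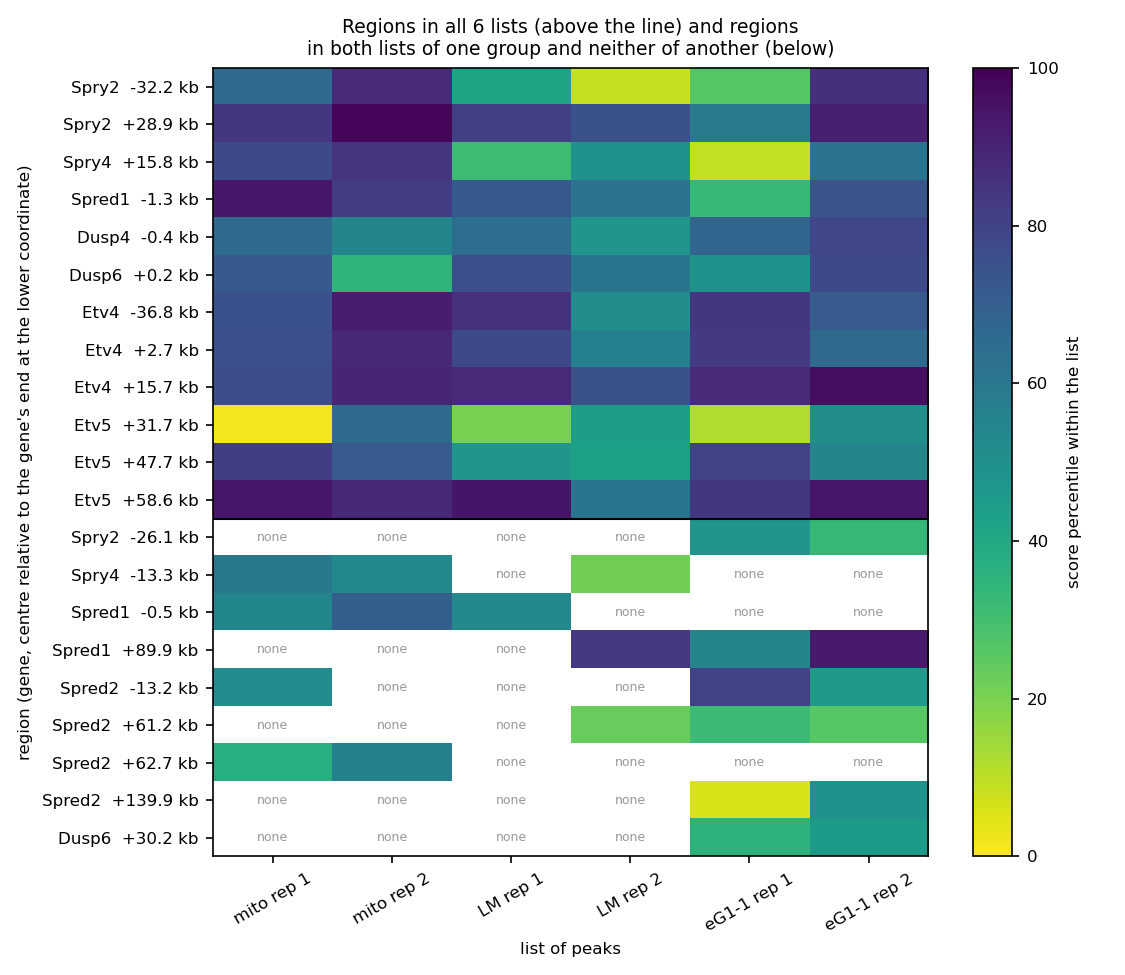
Score percentile within each list (colour) for the 12 regions in all 6 lists, above the line, and the 9 regions held by both lists of a group and neither of another, below it. Columns are lists, "none" marks a list with no peak, and rows give the gene and the distance of the region's centre in kb from the gene's end at the lower coordinate. The windows of Etv4 and Etv5 gave 6 of the 12 constant regions, among them one at an end of the neighbouring gene Dhx8, and the Spred2 window gave 4 of the 9 others.

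In all, 5 of the 8 members (Spred1, Dusp4, Dusp6, Etv4 and Etv5) had a peak within 1 kb of an end in every list, against 27.8% of all protein-coding genes. Regions in all 6 lists numbered 12 of 77, or 15.6%, against 15.5% of all regions, so the windows as a whole were not richer in constant sites. All 12 regions held by both LM lists were also held by the other lists, while 60.0% of the 20 regions in both mito lists and 48.0% of the 25 regions in both eG1-1 lists were. Over the genome these shares were 75.3% for LM, 53.5% for mito and 41.9% for eG1-1. A single list held 37 of the 77 regions, 17 of them in eG1-1 replicate 2, the longest list, 9 in eG1-1 replicate 1, 4 in each mito list, 3 in LM replicate 1 and 0 in LM replicate 2. The 12 constant regions had median score percentiles of 76.1 and 86.1 in the mito lists, 73.7 and 53.9 in the LM lists, and 63.1 and 75.8 in the eG1-1 lists. Over the 10114 constant regions of the genome the medians were 75.1 and 80.4 in the mito lists, 74.7 and 70.6 in the LM lists, and 79.0 and 86.5 in the eG1-1 lists. The constant regions of these genes ranked below the genome's in both LM and both eG1-1 lists and above it in both mito lists, differences that were not tested. Nor were the orders of groups noted above at single constant regions of Spry2, Spry4 and Etv5. The share of the 10114 regions with such an order is not given here.

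By position, 6 of the 11 regions within 1 kb of a member's end were in all lists, 3 of the 16 others inside a member, and 2 of the 49 in the flanks away from protein-coding gene ends. Of the flank regions, 27 were in a single list. Sorted by any protein-coding gene, 58.3% of the 12 window regions at a gene's end were in all lists, 12.5% of the 24 elsewhere within a gene and 4.88% of the 41 between genes. Over all regions these shares were 34.2%, 9.13% and 10.5%, so the higher share at gene ends was shared with the genome. Regions at a member's end with a peak numbered 8 and 8 in the mito lists, 8 and 6 in the LM lists, and 6 and 7 in the eG1-1 lists. Flank regions with a peak numbered 13 and 15 in the mito lists, 7 and 11 in the LM lists, and 19 and 32 in the eG1-1 lists, so both eG1-1 lists lay above all others. The flank counts were highest in the pair of longest lists, which are those of eG1-1. Among the LM lists, replicate 2, the shortest list, had 11 and replicate 1 had 7. The part of list length was not tested. At the borders of the windows, the nearest region inside each of the 16 borders was in all 6 lists in 3 cases, and the nearest outside in 5.

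The 8 windows together held 28 and 34 peaks in the mito lists, 25 and 23 in the LM lists, and 36 and 53 in the eG1-1 lists. Both eG1-1 lists held more than any other and both LM lists fewer, and the means were 31.0 ± 4.24 for mito, 24.0 ± 1.41 for LM and 44.5 ± 12.0 for eG1-1 (SD, n = 2 each). The peak names of replicates 1 all hold one NXT number and those of replicates 2 another, which was taken as a run. The labels do not say what this number stands for. On that reading, eG1-1 exceeded mito by 8 peaks in the first run and by 19 in the second. Divided by the length of the list, the difference was gone: the windows held 11.4 and 11.2 of every 10000 peaks in the mito lists, 10.5 and 11.1 in the LM lists, and 11.2 and 11.0 in the eG1-1 lists. The groups overlapped on this scale, and eG1-1 minus mito was −0.168 in the first run and −0.216 in the second. When every list was cut to its 20639 strongest peaks, the length of the shortest, the order turned, with 25 and 23 peaks in mito, 21 and 23 in LM, and 17 in each eG1-1 list. The cut removed more peaks from the longer eG1-1 lists. No p is given for these sums, because the genes were picked with earlier results of these data known. Covered length was 15223 and 19915 bp in the mito lists, 12652 and 7887 bp in the LM lists, and 13577 and 22652 bp in the eG1-1 lists, with overlapping mito and eG1-1 lists.

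Peaks of these windows ranked lower within the eG1-1 lists. The median score percentile of the window peaks was 51.8 and 53.8 in the mito lists, 47.7 and 49.0 in the LM lists, and 34.1 and 46.5 in the eG1-1 lists, without overlap between groups. The groups overlapped with a 100 kb flank (eG1-1 minus mito −7.49, against −12.5) and at a score of at least 50 (−3.88). Around all protein-coding genes the medians ran from 50.4 to 51.8 over the 6 lists. Cut to equal length, the window medians were 45.3 and 49.6 in the mito lists, 45.6 and 49.0 in the LM lists, and 49.0 and 48.3 in the eG1-1 lists, and the eG1-1 lists no longer ranked lowest. Per Mb, the 8 windows held 28.9 ± 3.96 peaks in the mito lists, 22.4 ± 1.32 in the LM lists, and 41.5 ± 11.2 in the eG1-1 lists. The joined windows of all protein-coding genes held 14.7 ± 2.15, 11.9 ± 1.33 and 21.1 ± 6.08 peaks per Mb in the same groups (SD, n = 2 each), so each group stood higher in the 8 windows. Against single windows of like length (within 10%), by the mean number of peaks over lists, the members stood between percentile 32.4 for Dusp4 and 77.6 for Etv5.

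**Figure D3:**
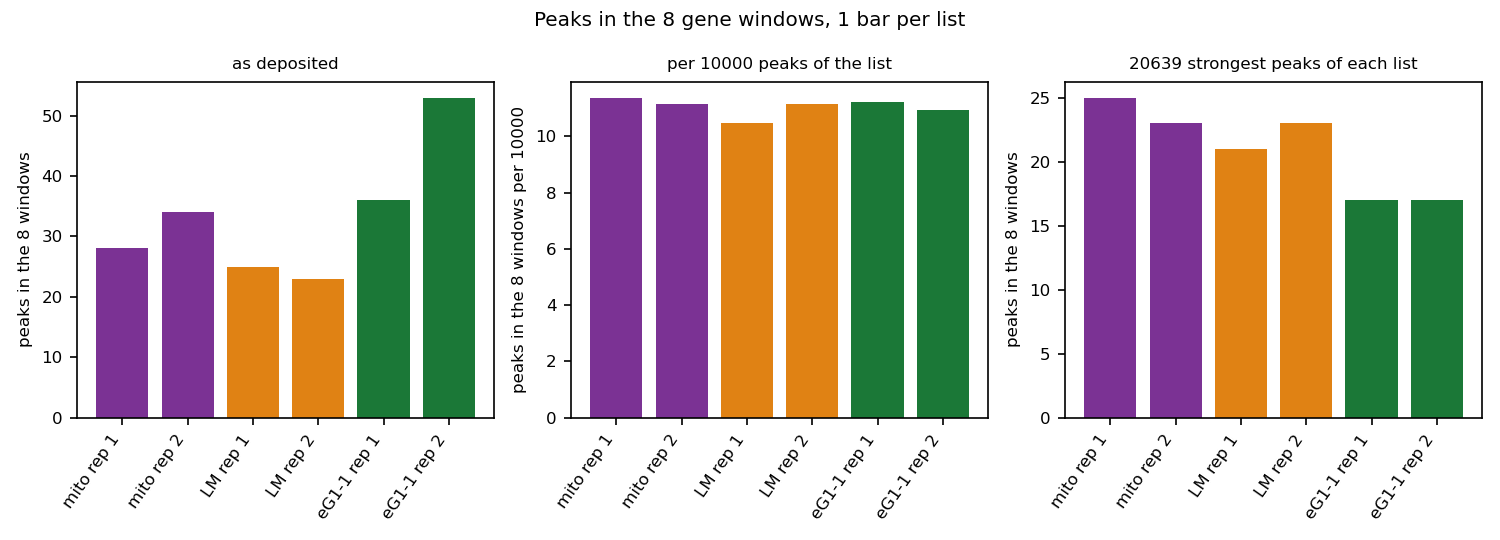
Peaks in the 8 windows, 1 bar per list in the order mito, LM, eG1-1: as deposited, per 10000 peaks of the list, and with every list cut to 20639 peaks. The eG1-1 bars are the tallest as deposited (36 and 53), level with the others per 10000 (11.2 and 11.0), and the shortest after the cut (17 and 17).

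Each gene was then followed on its own, as peaks in its window per 10000 peaks of the list, with an exact permutation test of the slope over mito, LM and eG1-1 made for all 19254 protein-coding windows with a peak. With 2 lists per group the LM values carry no weight in this slope. Etv5 had 3 and 5 peaks in the mito lists, 5 and 3 in the LM lists, and 6 and 10 in the eG1-1 lists. Per 10000 peaks these were 1.43 ± 0.299 for mito, 1.77 ± 0.454 for LM and 1.97 ± 0.139 for eG1-1 (SD, n = 2 each), with a slope of 0.268 from each point to the next (two-sided exact permutation p = 0.133, adjusted p = 0.742). Spred2 had 5 and 3 peaks in the mito lists, 3 and 2 in the LM lists, and 7 and 9 in the eG1-1 lists, with a slope of 0.256 (exact p = 0.378, adjusted p = 0.872). Dusp6 had 2 and 5, 3 and 2, and 4 and 8 peaks in the same order, and Spry2 had 4 and 2, 4 and 3, and 5 and 6, with slopes of 0.111 and 0.129. The Dusp6 slope was below 0 without mito replicate 1 (−0.0345) or eG1-1 replicate 2 (−0.00849), and the Spry2 slope without mito replicate 2 (−0.121). With every list cut to 20639 peaks the slopes of Spred2 (−0.485), Etv5 (−0.121) and Spry2 (−0.121) were negative too. The slope was then negative for 7 of the 8 members and for 41.7% of the 18519 windows with a peak, a difference that was not tested. At a score of at least 50 the slopes of Etv5 (−0.223) and Spry2 (−0.203) were negative. As deposited, both eG1-1 lists, the longest pair, stood above the 4 earlier lists at Spred2, Etv5 and Spry2, while at Dusp6 mito replicate 2 reached into their range. The share of all windows with such an order is not given here. Per 10000 peaks, at least 1 earlier list reached into or above the eG1-1 range at all 4 genes.

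The other 4 windows had negative slopes on this scale. Etv4 had 5 and 5 peaks in the mito lists, 4 and 3 in the LM lists, and 5 and 6 in the eG1-1 lists, or 1.84 ± 0.276, 1.56 ± 0.157 and 1.40 ± 0.225 per 10000, a slope of −0.219 (exact p = 0.111, adjusted p = 0.742). Spry4 had 3 and 8 peaks in the mito lists, 2 and 5 in the LM lists, and 4 and 5 in the eG1-1 lists, and its slope of −0.392 (exact p = 0.378) rested on mito replicate 2: without that list it was −0.104. Spred1 had 4 and 4, 2 and 4, and 4 and 6 peaks, and Dusp4 2 and 2, 2 and 1, and 1 and 3, with slopes of −0.114 and −0.135. For 0 of the 8 genes was the unadjusted p under 0.05, against 1.99% of all windows with a positive slope and 3.74% with a negative one. After Benjamini-Hochberg adjustment 0 of the 19254 windows passed (1103 at an unadjusted exact p under 0.05, smallest adjusted exact p = 0.679). The median slope was −0.00129 over the members and −0.0356 over all windows, and the slope was positive for 4 of 8 members and for 41.7% of all windows.

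**Figure D4:**
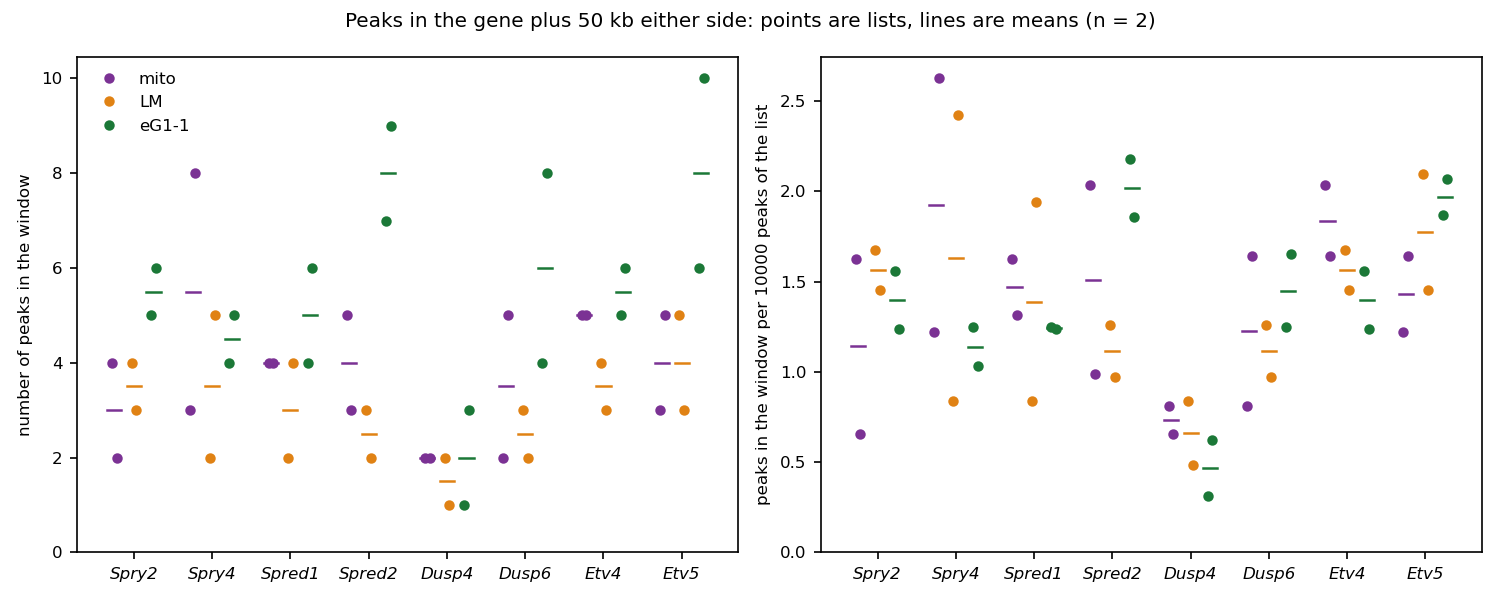
Peaks in each gene's window, as numbers (left) and per 10000 peaks of the list (right); points are single lists and short lines the means of 2 lists, in the order mito, LM, eG1-1 within each gene. Spred2, Etv5 and Spry2 have both eG1-1 numbers above the earlier lists on the left, and an earlier list within or above the eG1-1 range on the right, and Dusp4 has the lowest value of its list, alone or tied, in all 6 lists.

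The comparison of eG1-1 with mito asks which sites open or close between mitosis and early G1. Both eG1-1 lists, but neither of mito, held 5 of the 77 regions, or 6.49%, against 8.07% of all regions. Besides the sites at Spred1, Spred2 and Dusp6 described above, they were one 26.1 kb below Spry2 (105865682 to 105865967), with scores of 47 and 42 in eG1-1 and no peak in mito, and one inside Actr2 in the Spred2 window (20064050 to 20064571), with 20 and 56. Both mito lists, but neither of eG1-1, held 3 regions, or 3.90%, against 1.85% of all regions: the nearer upstream site of Spred1, the site 13.3 kb from Spry4 and the intragenic Spred2 site. With 1 eG1-1 list in place of 2, the first number was 24 of 69 regions without replicate 1 (35.5% of all regions at that setting) and 15 of 60 without replicate 2 (21.6%), and it was 9 of 73 without mito replicate 2 (13.7%). The second number was 8 or 7 of 73 with mito replicate 1 or 2 left out (7.99% and 5.78% of all regions), and 6 of 60 without eG1-1 replicate 2 (8.18%). Of the 8 genes, 0 had an end peak in both lists of one of these groups and neither of the other. Among all protein-coding genes 1.61% had one in eG1-1 and not mito and 1.97% in mito and not eG1-1.

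From LM to eG1-1, both eG1-1 lists, but neither of LM, held 4 regions, or 5.19%, against 9.38% of all regions, and both LM lists, but neither of eG1-1, held 0, against 0.459%. The 4 were the Spry2 site 26.1 kb below the gene, the Dusp6 site, the Actr2 site and one 13.2 kb before Spred2 (19911074 to 19911507). The last had a peak in mito replicate 1 (56), none in LM, and scores of 88 and 53 in eG1-1. From mito to LM, both LM lists, but neither of mito, held 0 regions, against 0.905% of all regions, and both mito lists, but neither of LM, held 1, the intragenic Spred2 site, or 1.30% against 3.56%. Member genes with an end peak gained or lost numbered 0 in each of these comparisons. The shares over all protein-coding genes were 2.35% for eG1-1 and not LM, 0.480% for LM and not eG1-1, 0.356% for LM and not mito and 2.17% for mito and not LM. The regions in eG1-1 and not LM numbered 7 of 75 without LM replicate 1 (15.4% of all regions) and 10 of 77 without LM replicate 2 (13.9%). They numbered 25 of 69 without eG1-1 replicate 1 (39.4%) and 13 of 60 without eG1-1 replicate 2 (23.7%). These comparisons share lists, so their counts are not independent of each other. With 2 lists against 2 an exact test cannot go below p = 0.333, and none was made.

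**Figure D5:**
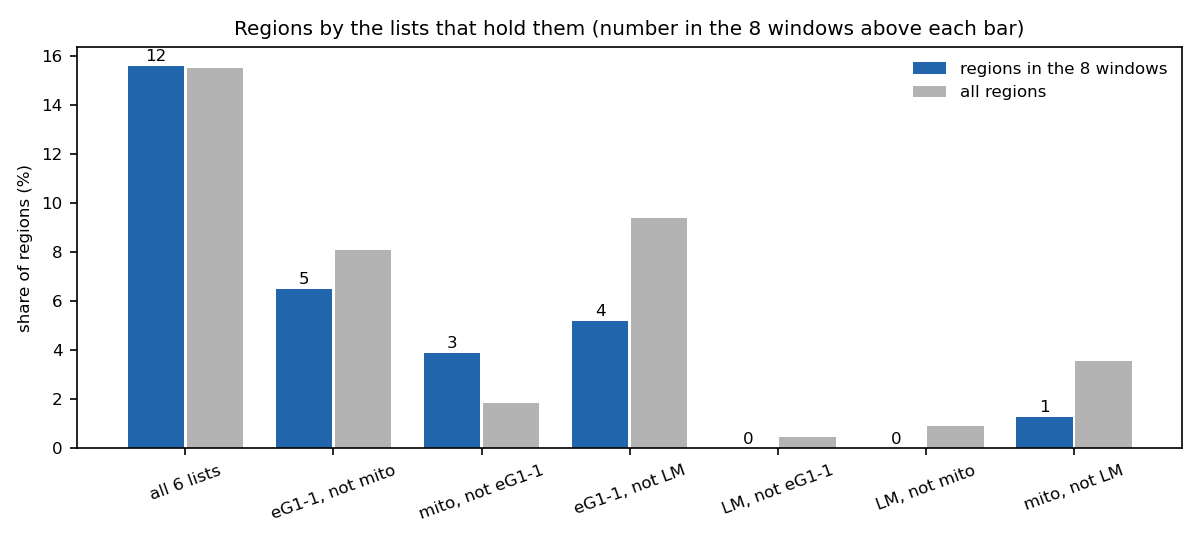
Share of regions, in percent, held by all 6 lists or by both lists of a group and neither list of another, for the 77 regions of the 8 windows (blue, with their number) and for all 65324 regions (grey). The windows match the genome for regions in all 6 lists (15.6% and 15.5%), and no other bar of the windows counts more than 5 regions.

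The rest of the pathway was read from a list of 65 other genes, through their ends. All 6 lists had an end peak at 23 of them and none had one at 9. Over all protein-coding genes these shares were 27.8% and 38.6%, and the subgroups below were not tested against them. Among adaptors and exchange factors, which link receptors to Ras, 7 of 11 were held throughout, among them Grb2, Ptpn11 and Nf1. Kinases and Ras genes had 7 of 14, including Hras and the MEK genes Map2k1 and Map2k2. Other feedback regulators had 4 of 12 (Spred3, Dusp5, Dusp7 and Lrig1), and other targets and effectors 5 of 16, including Egr1, Fos and Ets2. Ligands and receptors had 0 of 12. Genes with an end peak numbered 47 and 49 of 65 in the mito lists, 48 and 30 in the LM lists, and 37 and 49 in the eG1-1 lists, so the lowest count was that of LM replicate 2.

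Both eG1-1 lists, but neither of mito, held an end peak at 0 of the 65, and the opposite was seen at 3, beside the 1.61% and 1.97% of all protein-coding genes given above. These were Erf, an ETS repressor that ERK phosphorylates (scores 27 and 47 in mito), Phlda1 (64 and 65) and Lrig3 (61 and 73). Fgf4, the main FGF ligand of mouse embryonic stem cells, scored 73 and 39 in mito, had no end peak in LM, and scored 87 and 152 in eG1-1. Igf1r, a growth factor receptor gene, had no end peak in LM, against scores of 62 and 74 in mito, and scored 28 in eG1-1 replicate 2. Both mito lists, but neither of LM, held an end peak at 3 of the 65 (Fgf4, Igf1r and Lrig3), beside 2.17% of all protein-coding genes. For eG1-1 and not LM the number was 1 (Fgf4), beside 2.35%. The reverse numbered 0 in both cases, beside 0.356% and 0.480%. In the window test 64 of the 65 had a peak. The unadjusted p was under 0.05 with a positive slope at 1 gene, Elk3, and with a negative slope at 7, the steepest being Fgf4 (−0.947), Erf (−0.853), Junb (−0.716) and Frs3 (−0.547), beside 1.99% and 3.74% of all windows. None passed after adjustment over all windows (smallest adjusted exact p = 0.679). The median slope was −0.125 over the 64 genes.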

How the data were processed

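Each of the 6 deposited lists holds peaks with a chromosome, start, end, name and a whole-number score, lowest value 13. The score is the authors' own and its scale is not given in the sources used here, so it was ranked within each list. Raw scores are printed as deposited and were not put on a common scale between lists. Per the peak names in the deposited files, each sample had its own peak calling from paired-end data. Replicate numbers match the NXT number in those names, which was taken as a run. The submitters' processing notes list MACS2 2.2.4, STAR 2.7.0e, deepTools 3.5.1, SAMtools 1.10, bedtools and Picard, and the builds mm10 and GRCm38, without roles. Whether ends were shifted for Tn5 is not given in the sources used here.

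A peak counted in a window by an overlap of 1 bp with the gene plus 50 kb either side, by RefSeq positions on GRCm38.p6. Peaks overlapping by 1 bp across lists were merged into regions, and a region's score in a list is its highest peak. Slopes were tested exactly over 90 assignments of the lists (smallest p = 0.0222), or over 36 within runs (smallest p = 0.0556), with Benjamini-Hochberg adjustment over all windows with a peak, and the code was tested on simulated data. The pairing of replicates comes from the run names: deviations of same-numbered lists correlated at 0.0141 to 0.0328. The text names all 8 members, and of their windows the regions in all 6 lists, those parting 2 groups, the strongest region and the one at the start. Some further sites were named after their values were seen. The members, the pathway list and the motifs were chosen with earlier results of these data known. Python 3.11.15, numpy 2.4.6 and pandas 2.3.3 were used. Alternatives were a score of at least 50, equal list length, flanks of 20 and 100 kb, peak centres, merging by 100 bp, each list left out, and the replicate block.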

Additional observations from a re-analysis of the deposited data

How the results depend on the processing

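At a score of at least 50, 35 regions were left, of which 4 were in all 6 lists (15.1% of all regions at that setting), 1 in eG1-1 and not mito (8.11%), 2 in eG1-1 and not LM (10.6%) and 4 in mito and not LM (5.12%). The covered length then had a slope of −1061 bp per step, against 273 bp as reported, and the score percentile of eG1-1 minus mito was −3.88, against −12.5. At equal list length the slope of the number of peaks was −3.50, against 6.75, that of the share −1.70 per 10000, against −0.0961, that of the covered length −3391 bp, and the percentile difference 1.19. Of 44 regions 7 were then in all 6 lists (19.3% of all regions), 1 in eG1-1 and not mito (5.19%), 5 in mito and not eG1-1 (5.80%), 0 in eG1-1 and not LM (4.01%) and 1 in LM and not eG1-1 (3.12%). With a 20 kb flank the covered length had a slope of −392 bp. Of 46 regions 1 was in eG1-1 and not mito (8.07% of all regions) and 1 in eG1-1 and not LM (9.38%). With a 100 kb flank the share had a slope of 0.573, and the percentile difference was −7.49. Of 119 regions 5 were in mito and not eG1-1 (1.85% of all regions) and 7 in eG1-1 and not LM (9.38%). In LM and not mito there was 1 (0.905%), and in mito and not LM there were 4 (3.56%). Apart from fewer peaks entering at the stricter settings and more at the wider flank, the cause was not tested.

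With single lists left out, the slopes ran from 1.14 to 10.0 for the number of peaks, from −0.205 to 0.00294 for the share (above 0 without mito replicate 1) and from −2754 to 2360 bp for the covered length (lowest without eG1-1 replicate 2). The percentile difference ran from −18.7 without eG1-1 replicate 2 to −6.35 without eG1-1 replicate 1. Regions in eG1-1 and not mito numbered 5 to 24, with 24 without eG1-1 replicate 1, 15 without eG1-1 replicate 2 and 9 without mito replicate 2. The reverse numbered 3 to 8. The shares of all regions at these settings are given with the comparison of eG1-1 with mito. Regions in eG1-1 and not LM numbered 4 to 25, in LM and not eG1-1 0 to 4, in LM and not mito 0 to 5, in mito and not LM 1 to 8, and in all lists 11 to 14. Beside the highest counts, the shares of all regions were 39.4% for the 25 without eG1-1 replicate 1. Without LM replicate 2 they were 5.20% for the 4 and 6.31% for the 5. For the 8 without mito replicate 1 the share was 14.1%, and for the 14 without LM replicate 1 it was 17.4%. The counts that part 2 groups moved only where a list of those groups was left out, and a group of 1 list holds more regions by construction. Slopes per gene turned for Spry2 (−0.203 at a score of at least 50, −0.121 at equal length, −0.0500 with a 20 kb flank, −0.121 without mito replicate 2, and up to 0.294 with other lists left out), Spred2 (−0.485 at equal length), Etv5 (−0.223 at a score of at least 50, −0.121 at equal length) and Dusp6 (−0.0345 without mito replicate 1, −0.00849 without eG1-1 replicate 2, and up to 0.321 with other lists left out). The windows passing adjustment numbered 0 under every setting run, but with a smallest possible p of 0.0222 this number could hardly differ and says nothing about stability. The replicate block, which permutes within each run, leaves every slope as it was by construction (6.75 for the number of peaks). Its smallest possible p is 0.0556, which Etv4 reached, so no gene could be called under it. Read depth is unknown, and list length limits what these lists can show.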
